A study of Homo sapiens with 12 samples.

Results

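The genes followed here are 7 of the pigment organelle, picked by name out of a table of 26364 genes: PMEL, MLANA, GPNMB, SLC45A2, SLC24A5, OCA2 and CAPN3. The choice was made with earlier results of these data known. Counts of called members beside shares of all tested genes are therefore a description. All 7 were in the table and passed the filter on low counts, OCA2 through the siRNA libraries alone. The RNA came from A2058 cells, a long-established line from a human melanoma, and was sequenced in 12 libraries, 3 in each of 4 groups. One group carried a pLVX lentiviral vector with MITF and its control carried the empty LVX vector, both after puromycin selection. The other groups received siRNA against MITF or a scrambled siRNA by Lipofectamine for 48 hours. The labels do not name the promoter that drives MITF in the vector. Libraries are numbered as biological replicates and described as independent samples, without saying whether each had its own transduction or transfection. The p-values therefore describe scatter among these libraries, part of which may be technical.

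Melanosomes are lysosome-related organelles in which pigment cells make and store melanin. PMEL, also called gp100 or Pmel17, is cut into fragments that assemble into amyloid fibrils, and these fibrils form the internal scaffold on which melanin is deposited. MLANA, also called MART-1, is a small membrane protein that associates with PMEL and is needed for its maturation, while GPNMB is a transmembrane glycoprotein related to PMEL in sequence. SLC45A2, SLC24A5 and OCA2 are transport proteins that set the ionic conditions and pH for melanin synthesis, and inherited loss of each causes a form of oculocutaneous albinism. CAPN3 is a calcium-dependent protease best known from skeletal muscle, with shorter forms described in melanocytes. MITF is the transcription factor that directs melanocyte differentiation. It binds DNA at E-box elements, among them CACGTG and CATGTG.

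Total counts ran from 7427637 to 23938392 per library. One count equalled 0.0422 CPM in the deepest and 0.138 CPM in the shallowest library (CPM here stands for counts per gene adjusted for sequencing depth by TMM). The first principal component of log2 CPM held 61.3% of the variance and separated the 3 MITF overexpression libraries from the other 9, and on the second, with 17.0%, both siRNA groups lay on the other side from the empty vector. Differences in the members therefore run alongside many other differences between these libraries. MITF itself averaged 657 ± 23.3 CPM with the MITF vector and 304 ± 6.75 CPM with the empty vector. It averaged 343 ± 21.4 CPM with MITF siRNA and 467 ± 36.8 CPM with scrambled siRNA (mean ± SD, n = 3 each, as for every mean here). The gene count cannot separate transcripts of the vector from those of the cells' own MITF gene. Of 12 melanocytic marker genes, all were detected in each group except SOX9, which was at 0 in the MITF overexpression libraries. The summed level of these markers ran from 5124 to 5488 CPM with the MITF vector, 3766 to 3890.3 CPM with the empty vector, 5892 to 6472 CPM with MITF siRNA and 6762 to 7598 CPM with scrambled siRNA. The 12 genes include MITF itself, and DCT was the largest part of the sum in each group. DCT averaged 2591 ± 146 CPM with the MITF vector and 1265 ± 61.2 CPM with the empty vector. S100B, EDNRB, TYRP1, BCAN and SOX9 averaged lower with the MITF vector than with the empty vector, and the other markers higher. Markers of other cell types were low in every library, with sums of at most 34.5 CPM for 6 fibroblast genes, 25.5 CPM for 5 keratinocyte genes (KRT5 at 0 throughout) and 1.30 CPM for 3 endothelial genes. The sum of 6 leukocyte and macrophage genes differed by group, at 0.792 to 1.42 CPM with the MITF vector, 2.06 to 2.93 CPM with the empty vector, 7.20 to 8.12 CPM with MITF siRNA and 4.12 to 4.97 CPM with scrambled siRNA. Outside the MITF vector group most of this sum was 1 gene, LYZ. It averaged 0.398 ± 0.178 CPM with the MITF vector and 2.11 ± 0.393 CPM with the empty vector. With MITF siRNA and scrambled siRNA LYZ averaged 6.99 ± 0.622 and 3.85 ± 0.465 CPM. CSF1R was instead highest with the MITF vector (0.564 ± 0.0911 CPM) and lowest with scrambled siRNA (0.172 ± 0.0496 CPM). CD3E and MS4A1 were at 0 throughout, and the part of the 6 genes in the results was not tested. Of the 5 muscle genes, chosen because CAPN3 is a muscle protease, DES, MYOD1 and MYOG were at 0 in all 12 libraries and the sum stayed at or below 0.396 CPM.

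For 5 of the 7 genes a RefSeq promoter window (GRCh38.p14, 250 bases before to 50 after an annotated start) was at hand, 7 windows in all. PMEL and SLC45A2 had no entry. The windows of 4 genes are shown because they differ in the letters that MITF is known to bind. Capitals mark CACGTG or CATGTG on either strand, so that CATGTG on the opposite strand reads CACATG.
GPNMB, chr7:23246525-23246824, plus strand: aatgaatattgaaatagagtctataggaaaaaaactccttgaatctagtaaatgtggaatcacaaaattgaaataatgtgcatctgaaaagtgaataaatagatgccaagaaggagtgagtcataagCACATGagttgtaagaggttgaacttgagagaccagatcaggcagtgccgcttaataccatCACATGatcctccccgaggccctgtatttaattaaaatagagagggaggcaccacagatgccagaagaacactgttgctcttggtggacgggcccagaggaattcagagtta
SLC24A5, chr15:48120740-48121039, plus strand: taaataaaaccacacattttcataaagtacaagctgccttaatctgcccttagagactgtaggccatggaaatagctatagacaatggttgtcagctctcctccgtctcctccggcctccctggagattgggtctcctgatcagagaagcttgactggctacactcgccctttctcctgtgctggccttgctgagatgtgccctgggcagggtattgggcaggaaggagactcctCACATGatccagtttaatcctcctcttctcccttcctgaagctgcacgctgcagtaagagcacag
MLANA, chr9:5890639-5890938, plus strand: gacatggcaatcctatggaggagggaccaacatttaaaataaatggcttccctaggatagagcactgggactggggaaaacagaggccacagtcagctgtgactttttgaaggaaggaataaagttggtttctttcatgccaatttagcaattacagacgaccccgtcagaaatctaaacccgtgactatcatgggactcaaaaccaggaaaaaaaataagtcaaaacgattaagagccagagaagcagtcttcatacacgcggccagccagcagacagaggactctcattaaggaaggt
OCA2, chr15:28099266-28099565, minus strand: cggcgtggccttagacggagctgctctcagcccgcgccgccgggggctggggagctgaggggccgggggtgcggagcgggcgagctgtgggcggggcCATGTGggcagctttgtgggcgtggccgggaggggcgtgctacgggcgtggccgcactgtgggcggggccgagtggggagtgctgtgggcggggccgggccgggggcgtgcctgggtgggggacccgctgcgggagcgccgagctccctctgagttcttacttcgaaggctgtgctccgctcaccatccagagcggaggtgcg
GPNMB held CATGTG in 2 places, beginning 123 and 62 bases before the start, and SLC24A5 held it once, 15 bases before the start. All 3 matches had the preceding T that makes the longer form TCATGTG. OCA2 held CATGTG once, 153 bases before the start, without that T. Of the 3 CAPN3 windows, 1 held CATGTG, beginning at base 4 after the start and also without the T. The MLANA window held none of these letters. CACGTG was found in 7.26% and CATGTG in 11.1% of 35116 windows of the same length, and 17.6% held either. TCATGTG, which overlaps CATGTG by construction, was in 2.92%, and TCACGTG, which overlaps CACGTG, was in 3.71%. A match in a window is a description of its letters and says nothing about binding in these cells.

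Cells with the MITF vector were first set against cells with the empty vector, to see how the genes stood when MITF was raised. Of the 7 genes, 6 rose, by 1.45-fold to 8.47-fold, and OCA2, which was barely detected, was called lower. The 6 called higher stand beside 28.6% of the 14297 tested genes called higher, and the 1 called lower beside 30.8% called lower. The same 6 had every MITF overexpression library above every empty vector library, as did 32% of tested genes. A gene is called here when its adjusted p is under 0.05 (quasi-likelihood F-test of edgeR, Benjamini-Hochberg over all tested genes, as for every adjusted p in the text). The median log2 fold change of the members was 2.03, against 0.0037 over all tested genes. In bulk RNA, a change in the share of cells that express a gene and a change of RNA per cell cannot be told apart.

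All 3 structural proteins rose. The level of PMEL was 2760.0, 2969 and 2689 CPM in the MITF overexpression libraries, against 763, 613 and 679 CPM in the empty vector libraries. The groups lay far apart, and PMEL rose 4.09-fold (log2 fold change 2.03 (SE 0.076), adjusted p = 2.60e-12). MLANA had the largest rise of the 7, to 525, 544 and 505 CPM with the MITF vector, against 58.5, 65.2 and 63.2 CPM with the empty vector. MLANA rose 8.47-fold (log2 fold change 3.08 (SE 0.058), adjusted p = 2.53e-28) and ranked 72 from the top of the 14297 tested genes. GPNMB moved least of the 6 that rose, with 717, 718 and 694 CPM in MITF overexpression libraries and 487, 516 and 467 CPM in empty vector libraries. The groups still did not overlap, and GPNMB rose 1.45-fold (log2 fold change 0.54 (SE 0.043), adjusted p = 6.99e-13). The log2 rise of GPNMB was exceeded by 15.4% of all tested genes.

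The transporters did not move alike. SLC45A2, the transporter whose loss causes albinism type 4, reached 175, 175 and 178 CPM with the MITF vector, against 41.3, 39.9 and 40.9 CPM with the empty vector. Its libraries agreed closely within each group, and it rose 4.31-fold (log2 fold change 2.11 (SE 0.052), adjusted p = 8.00e-27). SLC24A5, a potassium-dependent sodium/calcium exchanger, stood at 80.5, 78.2 and 83.3 CPM with the MITF vector and 42.9, 35.9 and 40.4 CPM with the empty vector. Again the groups were separate, and SLC24A5 rose 2.00-fold (log2 fold change 1.00 (SE 0.062), adjusted p = 4.82e-16). The SLC24A5 locus is overlapped on the opposite strand by MYEF2, which also rose (log2 fold change 0.83, adjusted p = 1.02e-11). The counting's strand setting is unknown here, and the part of MYEF2 reads in the SLC24A5 value was not tested. MLANA is likewise overlapped by BRD10, listed in the counts as KIAA2026, at a log2 fold change of 0.46 (adjusted p = 8.05e-07).

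OCA2, which encodes the P protein involved in raising melanosome pH, was near the limit of detection in A2058 cells. It had 0, 1 and 5 counts in the MITF overexpression libraries, against 10, 2 and 5 counts in the empty vector libraries, which overlap. Summed over the groups this was 6 counts against 17, a level 5.14-fold lower after scaling (95% counting interval 1.93 to 15.9, which covers counting error only). The fitted log2 fold change was -2.27 (SE 0.69, adjusted p = 0.00533). The call rested on 1 library: without empty vector replicate 1 it was lost (log2 fold change -1.88, adjusted p = 0.0753), and without MITF overexpression replicate 3 the value was -4.11. OCA2 passed the filter on low counts through the siRNA groups, where it was higher, and it was not tested when only the MITF overexpression and empty vector libraries were fitted. CAPN3, the protease, reached 368, 398 and 361 CPM with the MITF vector, against 92.0, 85.5 and 87.3 CPM with the empty vector. The groups did not overlap, and CAPN3 rose 4.25-fold (log2 fold change 2.09 (SE 0.066), adjusted p = 9.57e-17).

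**Figure D1:**
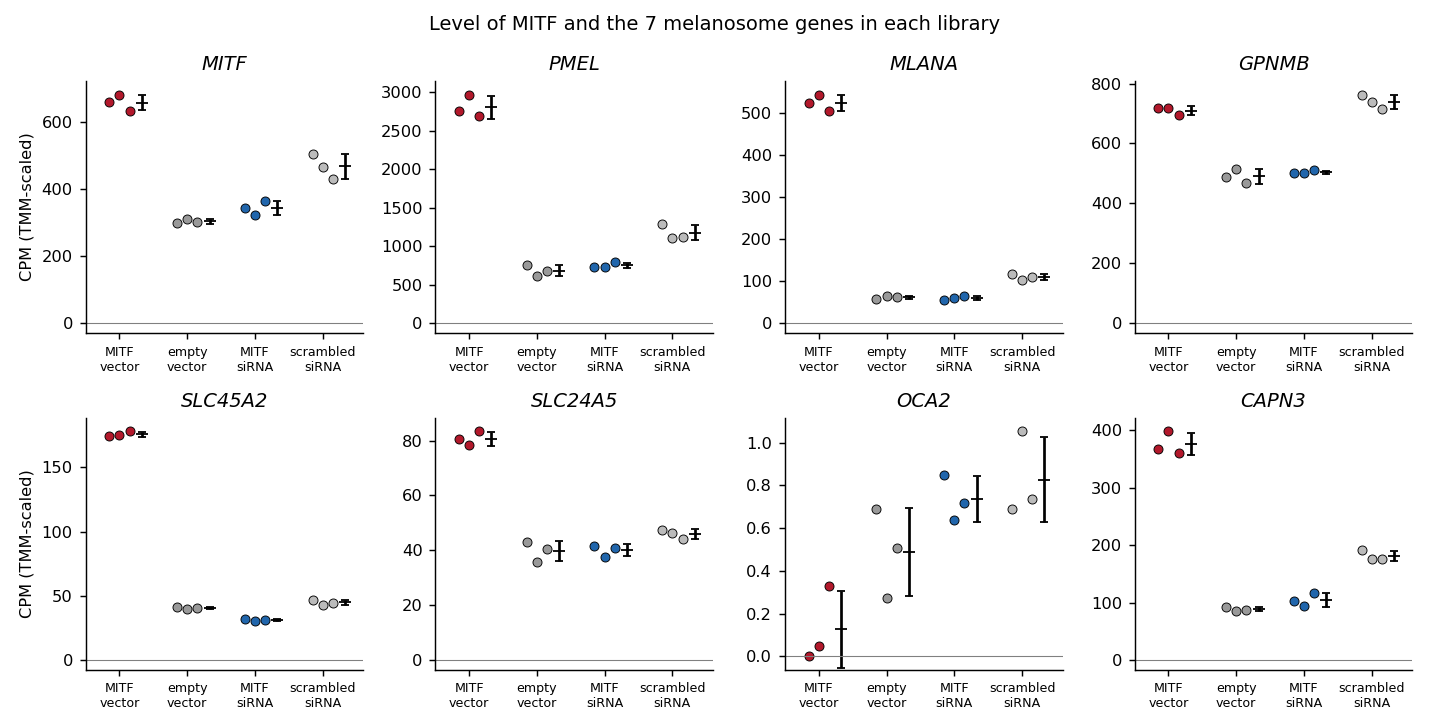
Level of MITF and each of the 7 genes in every library, in TMM-scaled CPM on a separate axis per gene, with the 4 groups along the bottom (points, single libraries; bars beside them, mean and SD, n = 3). In 5 of the 7 genes the MITF vector libraries are the highest, GPNMB is as high with scrambled siRNA, and OCA2 is at most 1.05 CPM everywhere.

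Cells given MITF siRNA were next set against cells given scrambled siRNA, to see how the genes stood when MITF was lowered. MITF fell by 26.4%, and 6 of the 7 genes fell, by 12.6% to 45.3%, while OCA2 did not pass the test. The 6 called lower stand beside 16.7% of tested genes called lower, and the 0 called higher beside 18.7% called higher. The same 6 had every MITF siRNA library below every scrambled siRNA library, as did 21.4% of tested genes. The median log2 fold change of the members was -0.55, against -0.0026 over all tested genes.

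Each of the structural genes fell. MLANA again moved most, with 55.6, 59.4 and 64.8 CPM in MITF siRNA libraries and 118, 103 and 109 CPM in scrambled siRNA libraries. All MITF siRNA libraries lay below all scrambled siRNA libraries, and MLANA fell by 45.3% (log2 fold change -0.87 (SE 0.057), adjusted p = 1.12e-13). PMEL stood at 734, 736 and 796 CPM with MITF siRNA, against 1285, 1114 and 1128 CPM with scrambled siRNA. The groups were separate and PMEL fell by 35.8% (log2 fold change -0.64 (SE 0.074), adjusted p = 7.16e-06). GPNMB was at 502, 501 and 510.4 CPM with MITF siRNA and 763, 737 and 715 CPM with scrambled siRNA. GPNMB fell by 31.7% (log2 fold change -0.55 (SE 0.043), adjusted p = 3.03e-12), where its log2 fold change with the MITF vector had been 0.54.

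SLC45A2 had 32.2, 30.7 and 31.0 CPM with MITF siRNA, against 46.7, 43.2 and 44.5 CPM with scrambled siRNA. The groups did not overlap, and SLC45A2 fell by 30.1% (log2 fold change -0.52 (SE 0.055), adjusted p = 3.49e-09). SLC24A5 changed least among the called genes, with 41.6, 37.7 and 40.9 CPM with MITF siRNA and 47.4, 46.1 and 44.0 CPM with scrambled siRNA. SLC24A5 fell by 12.6% (log2 fold change -0.19 (SE 0.061), adjusted p = 0.0126), and the call was lost without scrambled siRNA replicate 1 (-0.17, adjusted p = 0.0576). MYEF2, its overlapping neighbour, was at a log2 fold change of 0.11 (adjusted p = 0.262). OCA2 had 15, 12 and 17 counts with MITF siRNA and 9, 15 and 10 counts with scrambled siRNA, in libraries of different depth. Scaled to depth the groups overlapped, at 0.850, 0.637 and 0.718 CPM with MITF siRNA and 0.689, 1.05 and 0.735 CPM with scrambled siRNA (log2 fold change -0.18, 95% interval -0.97 to 0.61, adjusted p = 0.758). At this depth a change of OCA2 anywhere within that interval remained possible. CAPN3 stood at 102, 94.0 and 117 CPM with MITF siRNA, against 191, 177 and 176 CPM with scrambled siRNA, and fell by 42.3% (log2 fold change -0.79 (SE 0.063), adjusted p = 3.63e-09).

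**Figure D2:**
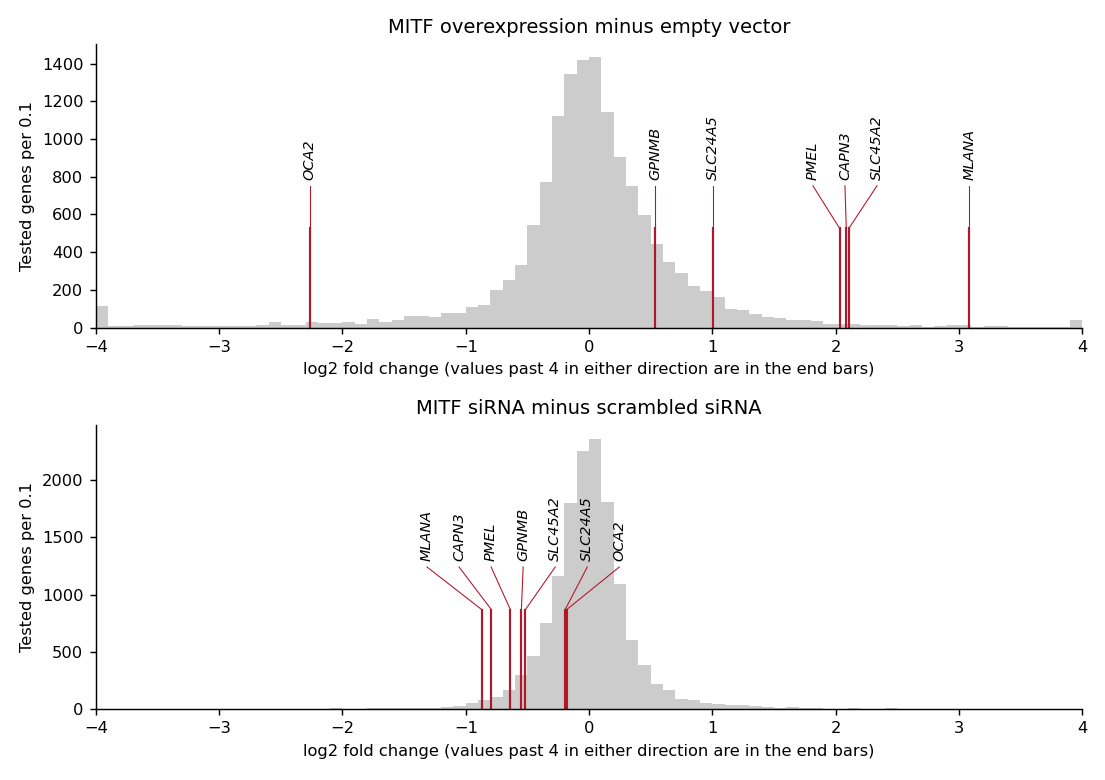
Number of tested genes (of 14297) by log2 fold change, for MITF overexpression minus empty vector (upper panel) and MITF siRNA minus scrambled siRNA (lower panel), with the 7 genes marked by red lines. All but OCA2 lie to the right in the upper panel, from GPNMB at 0.54 to MLANA at 3.08, and all 7 lie to the left of 0 in the lower panel, where OCA2 was not called.

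The members did not start from one level in both controls. Scrambled siRNA libraries held 1.54-fold more MITF transcript than empty vector libraries (log2 0.62 (SE 0.051), adjusted p = 3.17e-11). Of the 7 genes, 5 were called higher with scrambled siRNA, beside 18.9% of tested genes, and 0 were called lower, beside 19.6%. In TMM-scaled CPM all 7 members had every scrambled siRNA library above every empty vector library, and 23.7% of tested genes had no overlap in that direction. For OCA2 this was all but a tie. Its nearest libraries had 9 counts with scrambled siRNA and 10 counts with the empty vector, equal at 0.69 CPM to 2 decimals. As shares of total counts, without TMM factors, the order of those libraries turned (6.87e-05% with scrambled siRNA and 6.90e-05% with the empty vector). CAPN3 averaged 181 ± 8.41 CPM with scrambled siRNA and 88.2 ± 3.39 CPM with the empty vector, 2.05-fold higher (adjusted p = 1.05e-10). MLANA was 1.77-fold, PMEL 1.71-fold and GPNMB 1.51-fold higher (adjusted p = 9.70e-13, 7.54e-07 and 3.16e-13). For SLC24A5 the difference was 1.14-fold (log2 0.19 (SE 0.066), adjusted p = 0.0231), and it was no longer called without empty vector replicate 2 (0.14, adjusted p = 0.126), scrambled siRNA replicate 1 (0.16, adjusted p = 0.0829) or scrambled siRNA replicate 2 (0.19, adjusted p = 0.0559). SLC45A2 averaged 44.8 ± 1.76 CPM with scrambled siRNA and 40.7 ± 0.706 CPM with the empty vector. Its libraries did not overlap, but the difference missed the threshold (log2 0.13, 95% interval 0.02 to 0.25, adjusted p = 0.0665). OCA2 was not called either (log2 0.63, 95% interval -0.35 to 1.61, adjusted p = 0.323). The controls differ in delivery, siRNA lipofection in one and lentiviral transduction with selection in the other, and delivery cannot be told apart from the rest of what differs between them. These values share the scrambled siRNA libraries with the siRNA comparison and the empty vector libraries with the overexpression comparison.

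Set against the empty vector, the MITF siRNA libraries had slightly more MITF (log2 0.18 (SE 0.051), adjusted p = 0.00545), which was not called without MITF siRNA replicate 3 (0.13, adjusted p = 0.0601). Of the 7 genes, 1 was called higher, against 21.8% of tested genes, 1 was called lower, against 20.8%, and 5 were not called. CAPN3 was the higher one, with 104 ± 11.8 CPM with MITF siRNA and 88.2 ± 3.39 CPM with the empty vector (log2 0.24 (SE 0.068), adjusted p = 0.00659). That call, too, needed MITF siRNA replicate 3 (without it 0.14, adjusted p = 0.0502). SLC45A2 was the lower one, with 31.3 ± 0.779 CPM with MITF siRNA and 40.7 ± 0.706 CPM with the empty vector (log2 -0.38 (SE 0.058), adjusted p = 1.87e-06). MITF transcript was not lower in this comparison, whose groups also differ in delivery, and the cause of the SLC45A2 difference was not tested. For MLANA, GPNMB and SLC24A5 the 95% intervals of the log2 difference were -0.17 to 0.08, -0.05 to 0.13 and -0.14 to 0.13. PMEL had an interval of -0.02 to 0.30 (adjusted p = 0.153) and was called without empty vector replicate 1 (0.22, adjusted p = 0.00642). OCA2 was too sparse to place (-0.50 to 1.40).

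**Figure D3:**
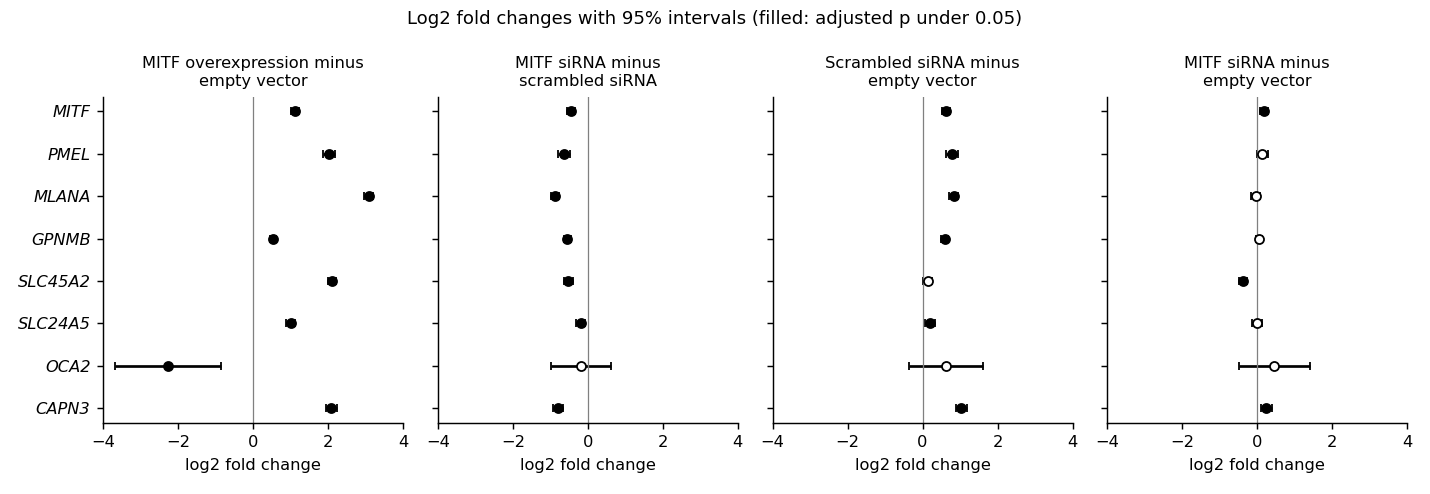
Log2 fold changes of MITF and the 7 genes in 4 comparisons (points, fitted values; bars, 95% intervals; filled points, adjusted p under 0.05). OCA2 has by far the widest intervals, and SLC45A2 is the one gene below 0 and called in MITF siRNA minus empty vector.

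The order of the 4 group levels followed from these differences. PMEL, MLANA, SLC45A2, SLC24A5 and CAPN3 were highest with the MITF vector and next highest with scrambled siRNA, and those neighbouring levels differed in each case (log2 fold change of MITF overexpression over scrambled siRNA 1.25, 2.26, 1.97, 0.81 and 1.05, largest adjusted p of these 1.23e-09). In that comparison 5 members were called higher and 1, OCA2, lower, beside 24.2% and 26.4% of tested genes. GPNMB was the exception: it averaged 709.8 ± 13.8 CPM with the MITF vector and 738 ± 23.8 CPM with scrambled siRNA, although MITF itself was 1.41-fold higher with the MITF vector. The GPNMB libraries of these groups overlapped (log2 -0.06, 95% interval -0.14 to 0.03, adjusted p = 0.280). At the lower end, MITF siRNA and the empty vector were neighbours for every gene but OCA2, and were separated by the test for SLC45A2 and CAPN3 only. For SLC45A2 the scrambled siRNA and empty vector levels, next below the MITF vector, were not separated. For OCA2 the scrambled siRNA, MITF siRNA and empty vector levels were not separated from each other. Its fitted log2 value for the MITF vector was -2.90 (SE 0.59) against scrambled siRNA and -2.71 (SE 0.57) against MITF siRNA, or -4.74 and -4.55 without MITF overexpression replicate 3. These are given as a description, because OCA2 passed the filter on low counts only through the siRNA groups, where it was higher, and with only the MITF overexpression and scrambled siRNA libraries fitted it was not tested.

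MITF overexpression was also set directly against MITF siRNA, where MITF itself was 1.91-fold higher with the MITF vector. Both groups are those of the comparisons above, so this is not separate evidence. There 6 members were called higher and 1, again OCA2, lower, beside 30.7% and 32% of tested genes. OCA2 passed the filter on low counts only through the siRNA groups, where it was higher. Its calls here and in the difference of responses below, which both use those groups, are therefore a description. MLANA differed 8.73-fold, SLC45A2 5.61-fold, PMEL 3.72-fold and CAPN3 3.59-fold, whereas SLC24A5 differed 2.01-fold and GPNMB 1.41-fold. The response to overexpression and the response to siRNA were also compared in 1 term of the same fit, overexpression minus siRNA. A positive difference was called for 6 members, beside 27.1% of tested genes, from 1.08 (SE 0.061) for GPNMB to 3.95 (SE 0.081) for MLANA on the log2 scale. The OCA2 difference was negative (-2.08 (SE 0.79), adjusted p = 0.0251), 1 member called lower beside 29.8% of tested genes. It was not called by DESeq2 (adjusted p = 0.0716), nor without empty vector replicate 1 (-1.70, adjusted p = 0.137), MITF overexpression replicate 1 (-1.42, adjusted p = 0.122) or MITF overexpression replicate 2 (-1.72, adjusted p = 0.0884), and it was -3.92 without MITF overexpression replicate 3.

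The members can be grouped by how far they moved beside MITF, with no test of the difference between genes. With the MITF vector, MITF rose 2.16-fold. MLANA, SLC45A2, CAPN3 and PMEL had larger folds than that, and SLC24A5 and GPNMB smaller ones. The MITF count joins transcripts of the vector and of the cells' own gene, so its fold need not equal that of MITF molecules. With MITF siRNA, the log2 fold change of MITF was -0.44, and the falls of MLANA, CAPN3, PMEL, GPNMB and SLC45A2 were larger while that of SLC24A5 was smaller. GPNMB therefore stood below MITF in the size of its rise and above it in the size of its fall.

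Likeness of profile was measured as the root mean square difference between 2 genes over the 12 libraries, in log2 CPM centred on each gene's own mean. Small values mean that both genes shifted between libraries in the same way and by like amounts, and all genes share the libraries and their depth. PMEL and CAPN3 were 0.12 apart, which made PMEL the gene nearest to CAPN3 and CAPN3 the second nearest to PMEL among 12249 candidates, whose median distances were 0.84 from CAPN3 and 0.83 from PMEL. The gene nearest to PMEL was APOE, an apolipoprotein, at 0.090, and next after CAPN3 came SLC19A2, a thiamine transporter, at 0.13. Nearest to MLANA were POU3F1, a POU-domain transcription factor, at 0.19, the tetraspanin TSPAN10 at 0.19 and LHFPL3-AS1, a noncoding RNA, at 0.23. SLC45A2 lay closest to ST3GAL6, a sialyltransferase, KCNAB2, a potassium channel beta subunit, and SELENBP1, at 0.15 to 0.16. SLC24A5 had the chloride transporters CLCN7 and CLCN5 at 0.078 and 0.084, then MACROD1 at 0.089.

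The genes nearest to GPNMB were PPARGC1B, a coactivator of mitochondrial genes, at 0.058, the isocitrate dehydrogenase IDH1 at 0.074 and SNAI2, a zinc finger transcription factor, at 0.075. PMEL, to which GPNMB is related in sequence, was 0.62 away and ranked 11373 of 12249 by nearness to GPNMB, whose median distance was 0.33. From the side of PMEL, whose median distance was 0.83, GPNMB ranked 1153 at the same 0.62. The distance depends on the size of the shifts as well as their direction. Over the 12 libraries GPNMB spanned 0.71 and PMEL 2.28 log2 units, so a gene that shifted little could lie nearer to GPNMB than PMEL did. CAPN3 was followed, after PMEL, by SEMA5A and NSG1 at 0.13. OCA2 had no close gene: the nearest, SLC22A17, was 0.37 away, and its profile rests on 0 to 17 counts a library.

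Levels can be compared between genes per length only. Length here is the union of each gene's exons in the GENCODE 29 basic set, whose build is not that of the counts. It can exceed the length of the transcripts that the cells make, which was not measured. PMEL held 989 ± 51.3 CPM per kilobase with the MITF vector and 241 ± 26.5 with the empty vector. MLANA held 189 ± 6.91 and 22.4 ± 1.24 CPM per kilobase in those groups, and GPNMB 179 ± 3.47 and 124 ± 6.27. CAPN3 held 102 ± 5.31 CPM per kilobase with the MITF vector and 24.0 ± 0.920 with the empty vector. PMEL was thus the most abundant per length in both groups. By this length, MLANA and GPNMB had close means in the MITF overexpression libraries and CAPN3 was below both. In the empty vector libraries GPNMB was above both MLANA and CAPN3, whose means were close. The order of these 3 genes may differ with another choice of length. SLC45A2 held 54.6 ± 0.570 and 12.6 ± 0.220 and SLC24A5 17.8 ± 0.565 and 8.76 ± 0.785 CPM per kilobase, in the same order of groups. OCA2 held 0.040 ± 0.056 and 0.154 ± 0.065 CPM per kilobase, far below the rest.

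Other genes of the melanosome gave mixed results. In the list of 3 melanin-synthesis enzymes, 2 rose and 1 fell with the MITF vector (median log2 fold change 0.22), where 28.6% of all tested genes were called higher and 30.8% lower. DCT, dopachrome tautomerase, ran from 2450.3 to 2742 CPM with the MITF vector and from 1195 to 1304 CPM with the empty vector (log2 fold change 1.03 (SE 0.080), adjusted p = 4.45e-08). TYRP1, another enzyme of eumelanin synthesis, ran from 83.7 to 85.7 CPM with the MITF vector and from 196 to 208 CPM with the empty vector, and fell (log2 fold change -1.26 (SE 0.051), adjusted p = 3.79e-21). With MITF siRNA 0 rose and 1 fell (median 0.024), where 18.7% of all tested genes were called higher and 16.7% lower. DCT fell (-0.49 (SE 0.079), adjusted p = 2.27e-04), whereas TYRP1 was at 0.080 (adjusted p = 0.205), a value that was called higher without scrambled siRNA replicate 1 (0.15, adjusted p = 0.0139). DCT lies on chromosome 13, where a window of 20 tested genes around its start, DCT itself included, had a median log2 fold change of -0.13 with the MITF vector. Windows of 20 tested genes around the 7 members, with the members left out, had medians from -0.21 around SLC45A2 to 0.36 around OCA2. None of the members is on chromosome 13.

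The list for PMEL sorting and processing had 11 tested genes. It is a loose list, and a place in it does not show that a gene, such as MREG or BACE1, acts on PMEL. Of the 11, 4 rose and 6 fell with the MITF vector (median -0.16), beside 28.6% and 30.8% of all tested genes. With MITF siRNA 2 rose and 4 fell (median -0.078), beside 18.7% and 16.7%, and in both comparisons the higher calls were near the share over all genes. TSPAN10 rose to between 33.6 and 38.6 CPM with the MITF vector, against 4.27 to 4.89 CPM with the empty vector (log2 fold change 2.92 (SE 0.12), adjusted p = 3.30e-21), and MREG, melanoregulin, also rose (1.16 (SE 0.087), adjusted p = 1.20e-13). BACE2, the protease known to cut PMEL, fell in both comparisons: by 0.19 (SE 0.040) with the MITF vector (adjusted p = 1.60e-04) and by 0.26 (SE 0.040) with MITF siRNA (adjusted p = 2.94e-06) on the log2 scale. Its relative BACE1 rose with MITF siRNA (0.51 (SE 0.054), adjusted p = 2.24e-09).

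The list for ion and metabolite transport and pH, beyond the 3 member transporters, had 13 tested genes (15 listed). It also holds the heat shock chaperone HSPA1A, which is no transporter. HSPA1A averaged 45.3 ± 3.23 CPM with the MITF vector and 72.3 ± 0.876 CPM with the empty vector. Of the 13 genes, 7 rose and 5 fell with the MITF vector (median 0.20), beside 28.6% and 30.8% of all tested genes. With MITF siRNA 1 rose and 9 fell (median -0.20), beside 18.7% and 16.7%. The copper transporter ATP7A, which supplies tyrosinase, ran from 149.8 to 161 CPM with the MITF vector and from 59.0 to 61.4 CPM with the empty vector (log2 fold change 1.34 (SE 0.054), adjusted p = 4.95e-21). It fell with MITF siRNA (-0.59 (SE 0.054), adjusted p = 1.53e-10), as did the cation channel gene TRPV2 (-0.49 (SE 0.048), adjusted p = 3.99e-10). MFSD12, a melanosomal cysteine importer, went the other way with the MITF vector, at 129.7 to 146 CPM, against 342 to 377 CPM with the empty vector (log2 fold change -1.40 (SE 0.050), adjusted p = 2.59e-22). With MITF siRNA MFSD12 was at 0.032 (adjusted p = 0.647).

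Of 20 tested genes (21 listed) of the complexes that sort cargo to melanosomes, 8 rose and 4 fell with the MITF vector (median 0.035), not far from the 28.6% and 30.8% of all tested genes. With MITF siRNA 2 rose and 7 fell (median -0.071), beside 18.7% and 16.7%. HPS4, a subunit of a complex that activates RAB32 and RAB38, rose 2.82-fold (log2 SE 0.052, adjusted p = 5.81e-23), and RAB38 rose too (log2 fold change 1.32 (SE 0.065), adjusted p = 4.17e-17). RAB38 fell with MITF siRNA (-0.43 (SE 0.066), adjusted p = 5.28e-06), as did LYST, the gene of Chediak-Higashi syndrome (-0.48 (SE 0.045), adjusted p = 1.64e-10). Of 7 genes of transport to the cell periphery, 3 rose and 2 fell with the MITF vector (median 0.092) and 0 rose and 3 fell with MITF siRNA (median -0.14), beside the same shares of all tested genes. RAB27A and MLPH, which link melanosomes to the actin motor MYO5A, rose by 1.63 (SE 0.072) and 1.58 (SE 0.071) on the log2 scale with the MITF vector (adjusted p = 7.03e-17 and 8.56e-17). With MITF siRNA they fell by 0.53 (SE 0.070) and 0.56 (SE 0.068) (adjusted p = 9.18e-07 and 2.39e-07).

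**Figure D4:**
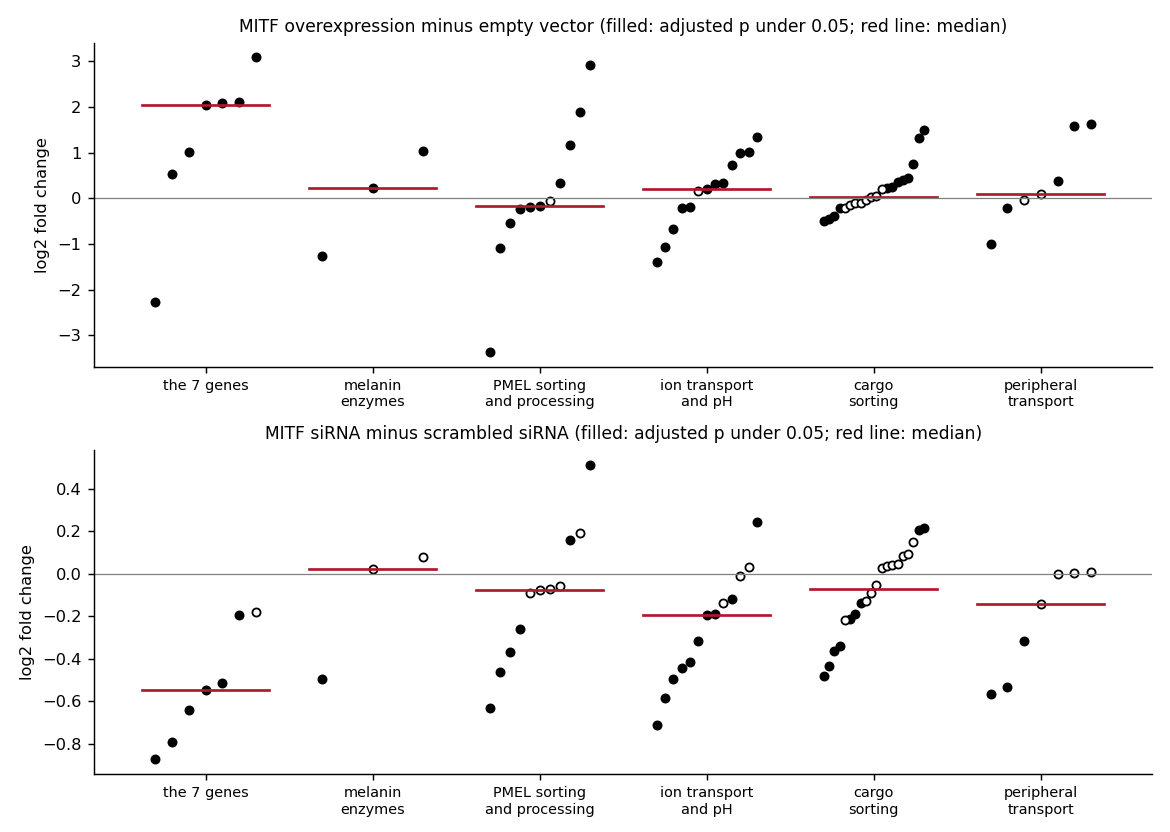
Log2 fold changes of the 7 genes and of the tested members of 5 lists of other melanosome genes (points, single genes; filled, adjusted p under 0.05; red line, median), for MITF overexpression minus empty vector (upper panel) and MITF siRNA minus scrambled siRNA (lower panel, with its own axis). The median of the 7 genes is 2.03 in the upper and -0.55 in the lower panel, and the medians of the other lists lie between -0.16 and 0.22 and between -0.20 and 0.024.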

How the data were processed

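The authors deposited raw read counts for each gene in each library. The submitters' processing notes name featureCounts 1.6.3, SAMtools 1.10, STAR 2.6.0 and bcl2fastq 2.18.0, and the build hg19. Per the labels' protocols, libraries were made with a stranded total RNA kit and read as paired ends of 76 bases. No source used here gives the counting settings for strand or for reads shared by genes. 0 columns of the table went unused.

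Genes were kept by filterByExpr (minimum count 10), which left 14297, and libraries were scaled by TMM. A model with a mean for each group was fitted to all 12 libraries with edgeR 4.0.16 (robust quasi-likelihood, limma 3.58.1, R 4.3.3). Standard errors were derived from F and the log2 fold change, and intervals use the fit's degrees of freedom at 95%. Log2 CPM used a prior count of 2. A count of 0 allows, at 3 counts, up to 0.127 to 0.413 CPM by library. Such limits and counting intervals cover counting error only.

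The named genes are the 7 members, MITF, the 2 genes of each of 5 melanosome lists with the smallest adjusted p in each of the overexpression and siRNA comparisons, and the 3 genes nearest to each member, among genes averaging 1 log2 CPM or more. BRD10 and MYEF2 were named as genes that overlap members in RefSeq (GRCh38.p14). RefSeq was also used for names, chromosomes, neighbours and promoters. Neighbours were 10 tested genes on each side by start position, without the members but with DCT in its own window. ZFP28 and LAMA3 came after SLC22A17 in nearness to OCA2. Cell type markers and HSPA1A were named to describe their lists. The members and lists were chosen with earlier results of these data known. Alternatives were size factors, DESeq2 1.42.0, no filter, fits of the groups compared only, a replicate block and leaving out each library. The steps were tested on simulated data.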

Additional observations from a re-analysis of the deposited data

How the results depend on the processing

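Counts of called genes stayed within 1.5 times the reported count in every comparison and alternative, and no scaling moved the share of higher calls by over 10 percentage points. The count of 1 member called lower with the MITF vector became 0 when only the groups compared were fitted, against the empty vector and against scrambled siRNA, because OCA2 then failed the filter. Leaving out single libraries gave 0 to 1 against the empty vector. For the difference of responses the 1 member called lower became 0 by DESeq2, and 0 to 1 when single libraries were left out. In MITF siRNA against the empty vector, the 1 member called higher became 2 without the filter and 0 to 2 when single libraries were left out. Signs turned only for differences that were not called: SLC24A5 in that comparison, from -0.0050 to 6.33e-04 by DESeq2, 0.0047 without the filter and 0.0023 with the replicate block, and from -0.067 to 0.062 over single libraries left out; MLANA there, from -0.11 to 0.0066; and OCA2 with MITF siRNA, from -0.29 to 0.030. The causes were not tested. Libraries that share a replicate number did not deviate together over the tested genes (18 pairs, r from -0.12 to 0.064). Pairs with different numbers had r from -0.085 to 0.091. These values show no sign of pairing, but they cannot exclude that libraries of the same number were prepared together. The replicate block moved the calls for overexpression to 8408 from 8494 and for MITF siRNA to 4960 from 5057, and changed no call of a member. Depth limits OCA2, with at most 17 counts in a library.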
